A study of Homo sapiens with 4 samples.

Results

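Collagens and laminins are the structural proteins of the extracellular matrix, and the genes described here are the 56 of 19747 protein-coding genes on chromosomes 1 to 22 and X whose symbols name a collagen chain (COL, a number, A and a number, as COL1A1) or a laminin chain (LAMA, LAMB or LAMC with a number). They were matched by symbol in the GENCODE annotation of hg19. They comprised 11 genes of fibrillar collagens, 18 of basement membrane proteins (collagen IV and the laminins) and 27 of other collagens. The peaks came from ChIP-seq of SK-N-MC, an Ewing sarcoma cell line grown without any stated treatment or genetic change, with 1 library for FLI1, 1 for SSRP1 and 1 for the acetylated histone H3K27ac. A further library of input chromatin from the same line served the authors as the background for peak calling, per the series' design text, and was not analysed here.

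A collagen is built from 3 chains wound into a triple helix. Fibrillar collagens assemble into the cables of bone, tendon and cartilage, whereas collagen IV and the laminin trimers (an alpha, a beta and a gamma chain each) form the sheet on which epithelial, endothelial, nerve and muscle cells sit. FLI1 is an ETS transcription factor, and in Ewing sarcoma its DNA-binding part is usually fused to EWSR1. The fusion protein is known to bind single ETS sites and also runs of consecutive GGAA, and the sources used here do not say whether the antibody separates it from intact FLI1. SSRP1 is a subunit of the histone chaperone FACT, which opens and restores nucleosomes during transcription, and H3K27ac marks active promoters and enhancers.

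On the chromosomes used, 36305 peaks of FLI1 (median width 283 bp), 19855 of SSRP1 (403 bp) and 37195 of H3K27ac (653 bp) were listed. They give positions without height, fold enrichment or p-value, so a peak is present or absent and no peak is stronger than another. With 1 library per target there was no replicate check and no test, and the 95% Clopper-Pearson intervals given with shares cover counting error only. Of 7 genes known as markers of Ewing sarcoma cells, SSRP1 and H3K27ac were found within 2.5 kb of a transcription start site (TSS) at 7 and FLI1 at 6. Of 5 listed marker genes of other cell types, 4 had none of the 3 targets. The remaining listed marker, PECAM1, did not match a gene in the set used and was left out.

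GGAA repeats inside FLI1 peaks are shown because the Ewing fusion protein is known to bind them, although few FLI1 peaks of these genes held one. In all, 4 members had a FLI1 peak with at least 4 consecutive GGAA, each in an intron and far from the start of the gene. They are shown in hg19 on the plus strand with each run in capitals, 145 to 150 bases from within the peak: chr6:129527208-129527352 in LAMA2, chr1:209798180-209798329 in LAMB3, chr10:71695837-71695986 in COL13A1 and chr6:56125366-56125515 in COL21A1.
LAMA2: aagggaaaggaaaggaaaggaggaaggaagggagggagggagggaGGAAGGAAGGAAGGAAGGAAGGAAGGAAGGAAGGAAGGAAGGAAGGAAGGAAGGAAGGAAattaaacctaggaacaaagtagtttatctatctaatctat
LAMB3: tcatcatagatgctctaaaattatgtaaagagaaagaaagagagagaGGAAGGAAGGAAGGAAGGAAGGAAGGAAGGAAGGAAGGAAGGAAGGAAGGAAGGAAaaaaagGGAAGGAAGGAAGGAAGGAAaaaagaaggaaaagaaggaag
COL13A1: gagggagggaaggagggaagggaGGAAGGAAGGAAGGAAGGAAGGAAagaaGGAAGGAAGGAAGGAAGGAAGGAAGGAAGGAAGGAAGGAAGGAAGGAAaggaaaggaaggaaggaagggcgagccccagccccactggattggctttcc
COL21A1: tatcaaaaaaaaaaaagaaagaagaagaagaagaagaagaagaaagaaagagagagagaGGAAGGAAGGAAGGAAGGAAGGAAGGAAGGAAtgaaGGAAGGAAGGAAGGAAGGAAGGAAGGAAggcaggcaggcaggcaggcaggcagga

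For contrast, 3 FLI1 peaks without a repeat are shown, chosen after their values were seen. The peak at the COL1A2 promoter (chr7:94023726-94023962) and the peak on the promoter shared by COL4A1 and COL4A2 (chr13:110959520-110959806) are given whole, with each GGAA or TTCC in capitals. The first held 2 such tetramers and the second 0. From an acetylated FLI1 peak in an intron of COL4A2, 107 bases (chr13:111041109-111041215) are given with the ETS core, CTTCCGG, in capitals.
COL1A2 promoter: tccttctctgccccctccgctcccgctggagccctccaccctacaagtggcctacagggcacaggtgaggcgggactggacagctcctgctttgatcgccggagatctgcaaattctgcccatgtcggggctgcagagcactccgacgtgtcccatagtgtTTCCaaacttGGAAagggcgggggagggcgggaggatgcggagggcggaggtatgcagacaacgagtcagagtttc
COL4A1 and COL4A2 promoter: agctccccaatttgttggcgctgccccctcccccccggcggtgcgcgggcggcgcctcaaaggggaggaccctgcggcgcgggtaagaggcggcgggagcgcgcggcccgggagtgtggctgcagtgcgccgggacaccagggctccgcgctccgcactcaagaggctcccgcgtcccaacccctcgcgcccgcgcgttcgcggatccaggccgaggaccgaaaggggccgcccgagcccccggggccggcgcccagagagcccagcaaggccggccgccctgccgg
COL4A2 intron: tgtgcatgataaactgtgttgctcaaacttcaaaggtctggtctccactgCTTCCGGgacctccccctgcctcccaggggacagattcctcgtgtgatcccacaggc

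The first comparison asked which collagen and laminin genes carried each target at a start site, read as any peak that reaches to within 2.5 kb of a TSS. H3K27ac was found at 20 of the 56 genes (35.7%, interval 23.4 to 49.6%), against 58.0% of all protein-coding genes. FLI1 was found at 18 genes (32.1%, interval 20.3 to 46.0%), against 29.1% of all genes, and SSRP1 at 22 genes (39.3%, interval 26.5 to 53.2%), against 35.9%. Collagen and laminin starts were thus acetylated less often than those of genes in general, while their shares with FLI1 and with SSRP1 lay near the background. The share with FLI1 fell on the other side of the background with a window of 1 kb (23.2%, against 24.6%). All 3 targets were at 9 genes (16.1%, interval 7.62 to 28.3%), against 17.4% of all genes, and none was at 21 genes (37.5%), against 34.5%. The matrix of members by target shows these patterns gene by gene.

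**Figure D1:**
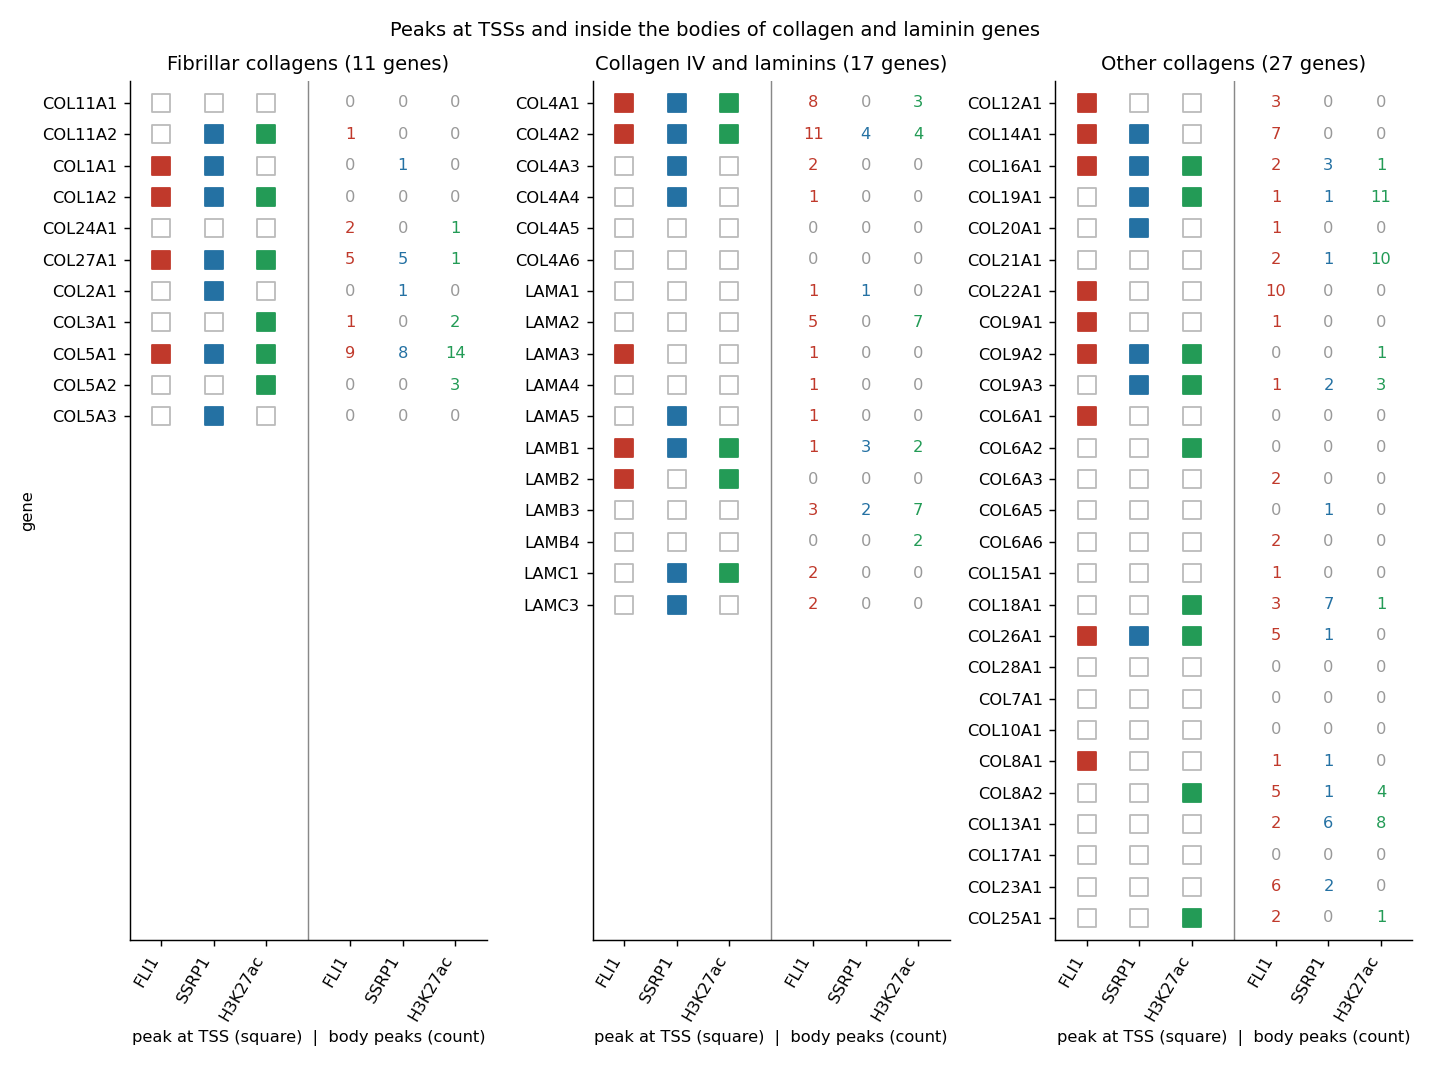
The collagen and laminin genes reported by name, in 3 panels by class: a filled square stands for a peak of that target within 2.5 kb of a TSS, and the numbers to the right count peaks with their midpoint in the gene body outside the TSS windows. All 3 squares are filled at 9 genes.

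Shares with SSRP1 or FLI1 and without H3K27ac lay above the background, each on few genes. SSRP1 without H3K27ac was at 9 members (16.1%, interval 7.62 to 28.3%), against 4.14% of all genes. COL4A3 and COL4A4 both count among the 9 through the same SSRP1 peak. With each head-to-head collagen IV pair counted once, the share was 8 of 53 (15.1%). SSRP1 alone, with neither other target, was at 7 members (12.5%, interval 5.18 to 24.1%), against 2.84% of all genes. FLI1 alone was at 6 members (10.7%, interval 4.03 to 21.9%), against 3.37%. Of these, COL12A1 (3.22 kb), COL9A1 and LAMA3 had their FLI1 peak over 2.5 kb from the canonical TSS, near another TSS. With canonical TSSs only, FLI1, alone or not, was at 15 of the 56 members (26.8%), against 26.5% of all genes. H3K27ac alone was at 6 members (10.7%, interval 4.03 to 21.9%), against 19.2% of all genes, a share that the interval held. Among the 36 members without H3K27ac, SSRP1 was at 9 (25.0%, interval 12.1 to 42.2%) and FLI1 at 8 (22.2%, interval 10.1 to 39.2%), against 9.86% and 11.1% of the genes without H3K27ac. The SSRP1 interval lay above its background, and the FLI1 interval held its own. Among the 20 members with H3K27ac, SSRP1 was at 13 (65.0%, interval 40.8 to 84.6%), against 54.8% of acetylated genes in general, which this interval held.

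Among the fibrillar collagens, SSRP1 was at 7 of 11 genes (63.6%, interval 30.8 to 89.1%), H3K27ac at 6 (54.5%, interval 23.4 to 83.3%) and FLI1 at 4 (36.4%, interval 10.9 to 69.2%). The basement membrane genes had SSRP1 at 8 of 18 (44.4%, interval 21.5 to 69.2%) and H3K27ac and FLI1 at 5 each (27.8%, interval 9.69 to 53.5%). The other collagens had SSRP1 at 7 of 27 (25.9%, interval 11.1 to 46.3%) and H3K27ac and FLI1 at 9 each (33.3%, interval 16.5 to 54.0%). The highest shares with SSRP1 and H3K27ac were thus those of fibrillar genes, but the intervals of the 3 classes overlapped for each target. Against the shares of all genes (58.0% for H3K27ac, 35.9% for SSRP1 and 29.1% for FLI1), H3K27ac at fibrillar genes lay near the background, and the lower share came with the basement membrane and other collagen genes. All 3 targets were at 3 genes of each class.

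**Figure D2:**
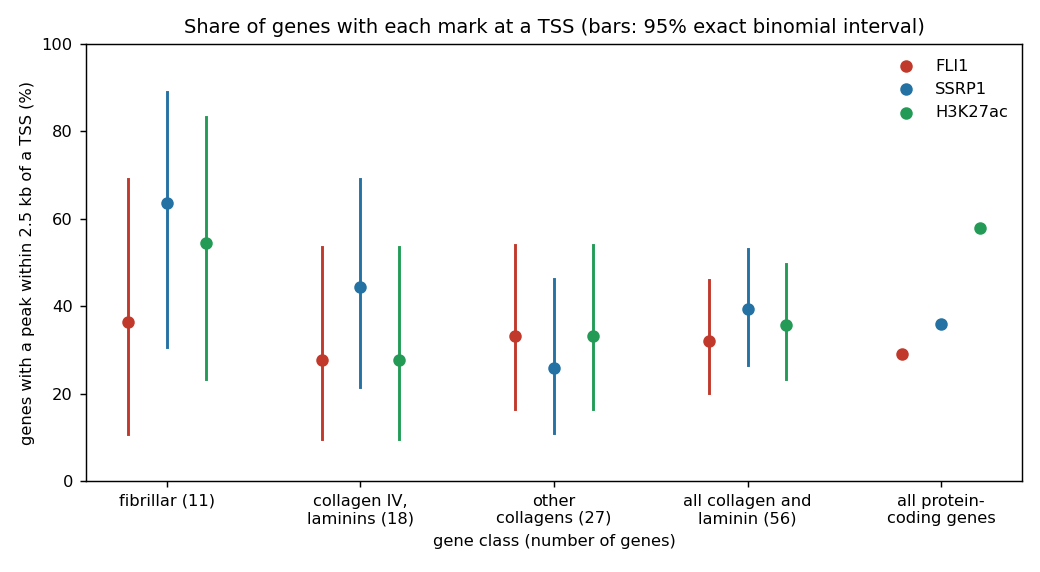
Share of genes (percent) with FLI1, SSRP1 or H3K27ac within 2.5 kb of a TSS in the 3 classes of collagen and laminin genes, in the 56 together and in all protein-coding genes. Points are shares and bars are 95% Clopper-Pearson intervals, too short to see for all genes. SSRP1 reaches 63.6% at fibrillar genes and 25.9% at other collagens, and the class intervals overlap.

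The chains of collagen I, the main collagen of bone and skin, differed in their marks. At COL1A2 (alpha-2 chain, chromosome 7) a FLI1 peak of 237 bp lay 245 bp upstream of the TSS, inside an SSRP1 peak of 701 bp and an H3K27ac peak of 2376 bp that both covered the TSS. At COL1A1 (alpha-1 chain, chromosome 17) an SSRP1 peak of 1225 bp (chr17:48277693-48278917) began within the gene 75 bp from the TSS, a FLI1 peak of 227 bp lay 2274 bp upstream, and no H3K27ac peak was in the window. The partner chains of 1 protein therefore shared FLI1 and SSRP1 but not acetylation, and the FLI1 peak of COL1A1 stood near the edge of the window.

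Collagen V helps set the diameter of collagen I fibrils, and its 3 genes had 3 different patterns. COL5A1 carried all 3 targets, with a FLI1 peak of 576 bp 54 bp upstream of the TSS and SSRP1 and H3K27ac peaks of 2215 and 3503 bp over it. COL5A2 had an H3K27ac peak of 1234 bp over its TSS and neither other target there, and COL5A3 had an SSRP1 peak of 301 bp 858 bp inside the gene. COL27A1, a minor fibrillar collagen of cartilage, also carried all 3: FLI1 peaks of 293 and 244 bp, the wider over the TSS, lay inside an SSRP1 peak of 1018 bp and met an H3K27ac peak of 1625 bp.

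COL3A1, the collagen of vessel walls and soft organs, had H3K27ac peaks of 1372 and 814 bp at its start and neither FLI1 nor SSRP1. COL2A1, the main collagen of cartilage, had SSRP1 alone, in a peak of 1200 bp that lay 2408 bp inside the gene. COL11A2, which encodes a chain of a cartilage collagen, had SSRP1 (472 and 284 bp) with H3K27ac (722 bp), the nearest 191 bp upstream. COL11A1, whose chain joins the same protein, had no peak in its window or span, and COL24A1 had none at a TSS.

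The collagen IV genes stand in head-to-head pairs that share a promoter. At COL4A1 and COL4A2, whose chains make the collagen IV of nearly every basement membrane, a FLI1 peak of 287 bp covered the COL4A2 TSS and lay 16 bp from that of COL4A1. SSRP1 (782 bp) and H3K27ac (1632 bp) covered the same stretch, so these 2 of the 9 genes with all 3 targets rest on 1 set of peaks. At COL4A3 and COL4A4, whose chains serve the kidney glomerulus, the shared promoter held an SSRP1 peak of 355 bp (chr2:228029288-228029642) and no FLI1 or H3K27ac. COL4A5 and COL4A6, the pair on the X chromosome, had no peak in window or span.

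Of the laminin chains, LAMB1 and LAMC1, the beta-1 and gamma-1 chains of the most widespread laminins, were both acetylated. LAMB1 carried all 3 targets, FLI1 (253 bp) and SSRP1 (637 bp) each lying over a different TSS inside 1 H3K27ac peak of 2561 bp and not meeting one another. LAMC1 had SSRP1 (534 bp, 158 bp upstream) inside H3K27ac (2033 bp). LAMB2, the beta-2 chain of nerve-muscle synapses and glomeruli, had H3K27ac over its TSS (1773 bp) and a FLI1 peak of 260 bp at 2327 bp upstream. No alpha chain gene had H3K27ac at a TSS: LAMA5 had SSRP1 alone (361 bp), LAMA3 FLI1 alone (335 bp, near an internal TSS 182 kb from the canonical one), and LAMA1, LAMA2 and LAMA4 had nothing at a TSS. LAMC3 had SSRP1 alone (401 bp), and LAMB3 and LAMB4 had nothing at a TSS.

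Among the other collagens, the FACIT group coats the surface of fibrils without forming them. COL16A1, of this group, had the widest H3K27ac peak of any member (7085 bp), holding FLI1 peaks of 526 and 721 bp and 4 SSRP1 peaks, the widest 1886 bp. COL9A2, a chain of the collagen that decorates cartilage fibrils, had a FLI1 peak of 496 bp, SSRP1 peaks of 673 and 551 bp and H3K27ac of 3285 bp. Its partner COL9A3 had SSRP1 and H3K27ac without FLI1, and its partner COL9A1 a single FLI1 peak of 280 bp, 2441 bp downstream of an internal TSS and 22.3 kb from the canonical one. The 3 chains of collagen IX therefore each had a different set.

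COL14A1, which binds fibrils of skin and tendon, had 3 FLI1 and 2 SSRP1 peaks and no H3K27ac. COL12A1, a related collagen of tendon and ligament, and COL22A1, found at the junction of muscle and tendon, had FLI1 alone, as did COL6A1 and COL8A1. COL6A1 encodes a chain of the beaded microfibrils around muscle, and its partner COL6A2 had H3K27ac alone while COL6A3 had none. COL26A1 completes the genes with all 3 targets, with FLI1 (227 bp), SSRP1 (459 bp) and H3K27ac (403 bp) between 749 and 1843 bp inside the gene, where SSRP1 and H3K27ac overlapped and FLI1 did not. COL19A1 had SSRP1 and H3K27ac, in a window that also holds the TSS of LMBRD1. COL20A1 had SSRP1 alone, and COL8A2, COL18A1 and COL25A1 H3K27ac alone, that of COL8A2 lying 26.2 kb from its canonical TSS.

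Neither a window nor a span peak was found at 8 of the 56 genes (14.3%, interval 6.38 to 26.2%), against 25.4% of all genes. The members are longer than most genes (median span 125 kb, against 27 kb), and this share was not compared at like length. Fibrillar COL11A1, the pair COL4A5 and COL4A6, and COL7A1, COL10A1, COL17A1 and COL28A1 were among the 8 without a peak. COL7A1 builds the anchoring fibrils of skin, COL17A1 is a transmembrane collagen of the hemidesmosome, and COL10A1 is made by hypertrophic chondrocytes. COL4A5 and COL4A6 lie on the X chromosome and COL17A1 on chromosome 10, where FLI1 peaks were sparse in the whole list (1.12 and 1.79 per Mb). The part of this in the result was not tested. Without chromosomes 3, 8, 10 and X, H3K27ac was at 42.2% of the 45 members left, against 58.8% of the genes left, SSRP1 at 46.7%, against 37.9%, and FLI1 at 31.1%, against 30.6%.

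The limit of 2.5 kb decides a few of these calls. Just inside it lay the FLI1 peaks of COL9A1 (2441 bp), LAMB2 (2327 bp) and COL1A1 (2274 bp) and the SSRP1 peak of COL2A1 (2408 bp). Just outside lay the FLI1 peaks of COL7A1 (3342 bp) and COL8A2 (3734 bp), the SSRP1 peak of COL8A2 (2936 bp) and the H3K27ac peak of COL7A1 (2980 bp). Where FLI1 stood alone, its peaks measured from 227 bp at COL6A1 and COL12A1 to 377 bp at COL22A1. The width of 227 bp is the smallest in the FLI1 list, and 37 of the 134 FLI1 peaks of members (27.6%) had it, against 18.4% of all FLI1 peaks. With only the peaks at or above the median width of each list, FLI1 was at 9 members (16.1%), against 20.2% of all genes, and SSRP1 without H3K27ac at 5 (8.93%), against 3.53%.

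The base composition of the starts was described as well. The CpG observed over expected ratio within 500 bp of a TSS, taken at the TSS where it was highest, had a median of 0.64 over the 56 members, against 0.75 over all genes, and 29 members (51.8%) reached 0.6, against 69.2% of all genes. Members with SSRP1 and H3K27ac had a median of 0.83, the 9 with SSRP1 and no H3K27ac 0.70, the 7 with H3K27ac and no SSRP1 0.75, and the 27 with neither 0.54. In all protein-coding genes the medians of the same groups were 0.83, 0.73, 0.78 and 0.39. By SSRP1 and H3K27ac, the group medians thus stood in the same order in members as in all genes. By FLI1 the medians of members lay closer together, 0.65 with it and 0.62 without, against 0.80 and 0.71 in all genes. Fibrillar genes had the lowest class median, 0.54, against 0.71 at basement membrane genes and 0.65 at other collagens. The part of CpG content in the lower share of acetylated members was not tested.

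**Figure D3:**
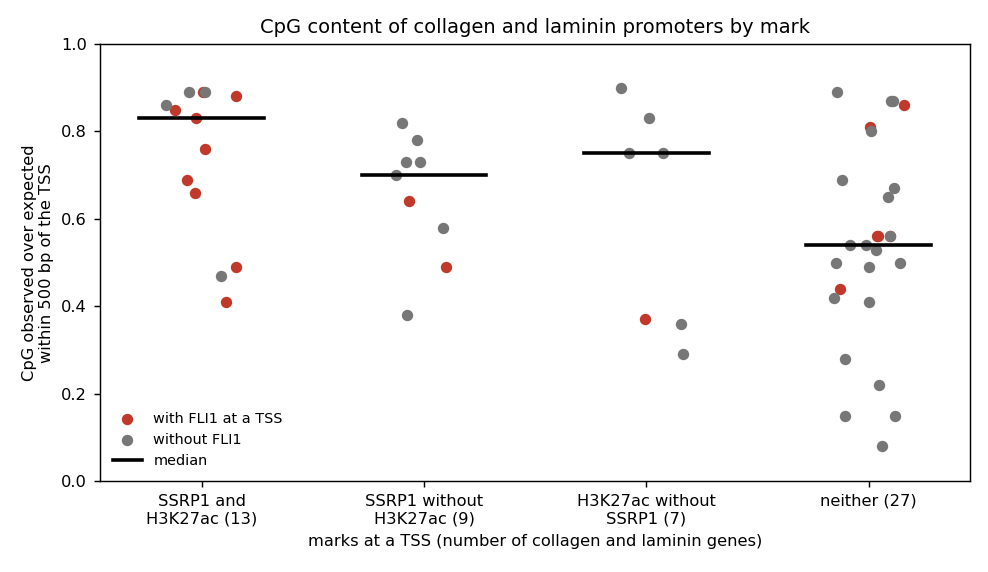
CpG observed over expected ratio within 500 bp of a TSS for the 56 members, 1 point a gene, grouped by SSRP1 and H3K27ac at a TSS, with black lines at the group medians. Red points have FLI1 at a TSS and grey points do not. The median is 0.83 with both and 0.54 with neither, and the groups overlap.

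Collagen and laminin genes are long, with a median span of 125 kb against 27 kb for all genes, so peaks over the gene body were read beside genes of like length. FLI1 met the span of 38 members (67.9%), against 44.3% of all genes and 62.6% at the rate of genes of the same lengths. SSRP1 met 27 spans (48.2%), against 40.2% and 49.1%. H3K27ac met 25 spans (44.6%), against 61.2% of all genes and 69.4% at the same lengths. A span holds part of its start windows, and as there, H3K27ac was low while FLI1 and SSRP1 lay near the rate of genes of like length.

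Away from the start windows, FLI1 peaks had their midpoints inside 37 members (66.1%), against 31.5% of all genes and 54.3% at the same lengths. For SSRP1 this held in 19 members (33.9%), against 17.4% and 25.9%, and for H3K27ac in 20 members (35.7%), against 19.6% and 33.0%. Per 100 kb of this inner span the density in the members was 1.38 for FLI1, 0.618 for SSRP1 and 1.04 for H3K27ac, against 1.22, 0.556 and 1.04 in all genes. The lower share with H3K27ac was thus seen at the starts and not in the inner bodies. Counted at the rate of each gene's own chromosome, 98.9 inner FLI1 peaks would fall in these spans, and 114 did. That rate takes all peaks of a chromosome, those at starts included, over its whole reference length with gaps. It is thus not a like measure for inner peaks. For SSRP1 the rate gave 47.8 and the count was 51, and for H3K27ac it gave 95.2 and the count was 86. The SSRP1 count and density include 7 inner peaks of COL18A1 that also lie inside the gene SLC19A1, whose TSS is the nearest coding one. Without peaks inside another coding gene, SSRP1 met the spans of 24 members (42.9%).

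**Figure D4:**
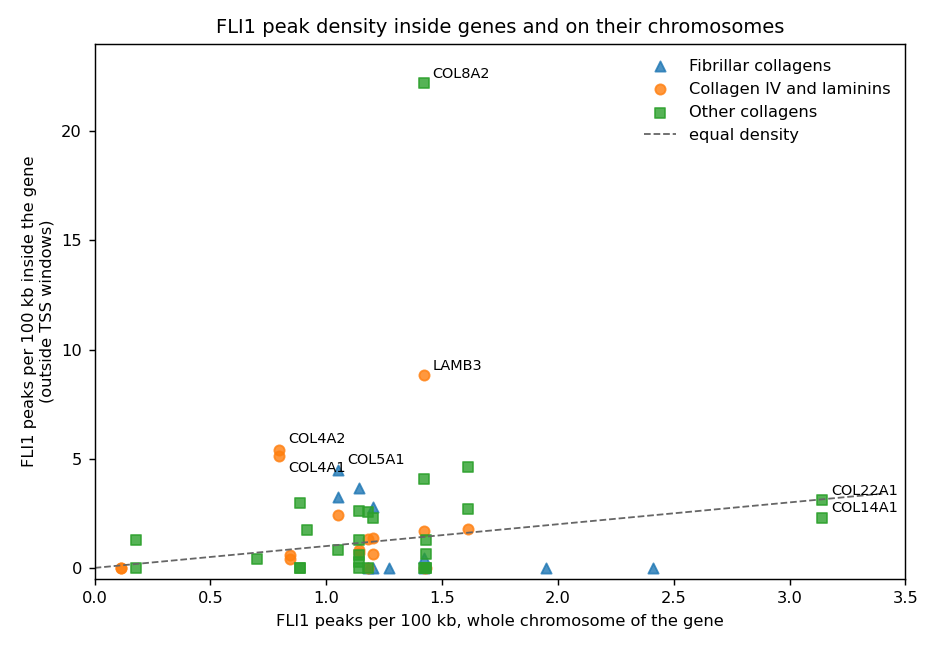
FLI1 peaks per 100 kb inside each collagen or laminin gene and outside its TSS windows, plotted against FLI1 peaks per 100 kb over the whole chromosome of the gene, 1 point a gene shaped by class. The dashed line marks equal density: COL4A2 (5.41) and COL4A1 (5.14) lie above it, while COL22A1 (3.09) and COL14A1 (2.30) lie on or below it.

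The 5 members with the most inner FLI1 peaks were COL4A2 with 11, COL22A1 with 10, COL5A1 with 9, COL4A1 with 8 and COL14A1 with 7. Per 100 kb these were 5.41 in COL4A2, 5.14 in COL4A1, 4.49 in COL5A1, 3.09 in COL22A1 and 2.30 in COL14A1. At the rate of chromosome 13, COL4A2 would hold 1.62 and COL4A1 1.24, and at that of chromosome 9 COL5A1 would hold 2.11. COL22A1 and COL14A1 lie on chromosome 8, the most densely covered in the FLI1 list (31.4 per Mb), where their lengths would give 10.1 and 9.54. The collagen IV pair and COL5A1 held more FLI1 peaks than these rates gave, and the chromosome 8 genes did not. All 5 were picked for their high counts, and no share of like genes stands beside these densities. The counts above the rate are therefore a description only. The highest densities, picked out after their values were seen, were in shorter genes, 22.2 per 100 kb in COL8A2 (5 peaks), a collagen of the corneal endothelium, and 8.83 in LAMB3 (3 peaks). By family, also compared after the values were seen, an inner FLI1 peak was in 90.0% of the 10 FACIT genes, against 53.3% at the rate of genes of the same lengths, and in 75% of the 12 laminin genes, against 53.3%. It was in 66.7% of the 6 collagen IV genes, against 68.8%, in 45.5% of the 11 fibrillar genes, against 49.0%, and in 40.0% of the 5 collagen VI genes, against 48.3%. Density gave another order. Per 100 kb, collagen IV genes held 1.85, FACIT 1.73, fibrillar 1.3, laminin 0.976 and collagen VI 0.931, against 1.22 in all genes.

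Most FLI1 peaks inside the members stood by themselves. Of 113 body peaks (meeting a span and no window), 109 had their midpoint in an intron and 4 in an exon. An H3K27ac peak was shared by 20 (17.7%), against 19.0% of all FLI1 peaks outside coding TSS windows, and an SSRP1 peak by 12 (10.6%), against 11.1%, where shared means at least 20% of either peak covered. At the starts, 9 of 21 FLI1 peaks were shared with H3K27ac and 10 with SSRP1. SSRP1 peaks were shared with H3K27ac in 19 of 29 at the starts and in 16 of 50 in the bodies. The start counts and the SSRP1 counts have no share over all peaks beside them. They are therefore not read as particular to these genes.

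Joined across gaps of up to 2.5 kb, H3K27ac peaks formed 12 clusters of 3 or more peaks at 8 members. No share of all genes, or of genes of like length, stands beside this count, so it is a description only. The longest cluster ran for 14.4 kb in COL5A1 (chr9:137590604-137605049), 57.0 kb from the TSS, with 6 H3K27ac peaks, 3 SSRP1 and 2 FLI1 peaks. COL5A1 held 14 inner H3K27ac peaks and 8 inner SSRP1 peaks, and H3K27ac covered 10.1% of its span. The next by length lay in COL13A1 (11.3 kb, 129 kb from the canonical TSS), LAMB3 (8.65 kb, 25.4 kb away), COL21A1 (7.04 kb, 8.0 kb away) and LAMA2 (6.02 kb, 320 kb away). COL13A1 encodes a transmembrane collagen of the nerve-muscle synapse, LAMB3 the beta chain of the epidermal laminin, COL21A1 a FACIT collagen, and LAMA2 the alpha chain of muscle laminin. None of these 4 genes had any target at a TSS.

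Each of those 4 clusters held the GGAA repeat of its gene, the sequences printed above. In LAMA2 a FLI1 peak of 502 bp held 15 consecutive GGAA, 323 kb from the canonical TSS. In LAMB3 a peak of 464 bp held runs of 14 and 5 copies, 27.1 kb from the TSS, and in COL13A1 a peak of 725 bp held runs of 12 and 6, 134 kb away. In COL21A1 a peak of 730 bp held runs of 8, 7 and 6 copies 12.6 kb upstream of the canonical TSS, in an intron of a longer transcript, and the third run lies past the printed stretch. All 4 peaks met H3K27ac, and that of COL21A1 met SSRP1 too. The nearest coding TSS to the COL13A1 peak was that of MACROH2A2, 116 kb away, and not that of COL13A1.

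**Figure D5:**
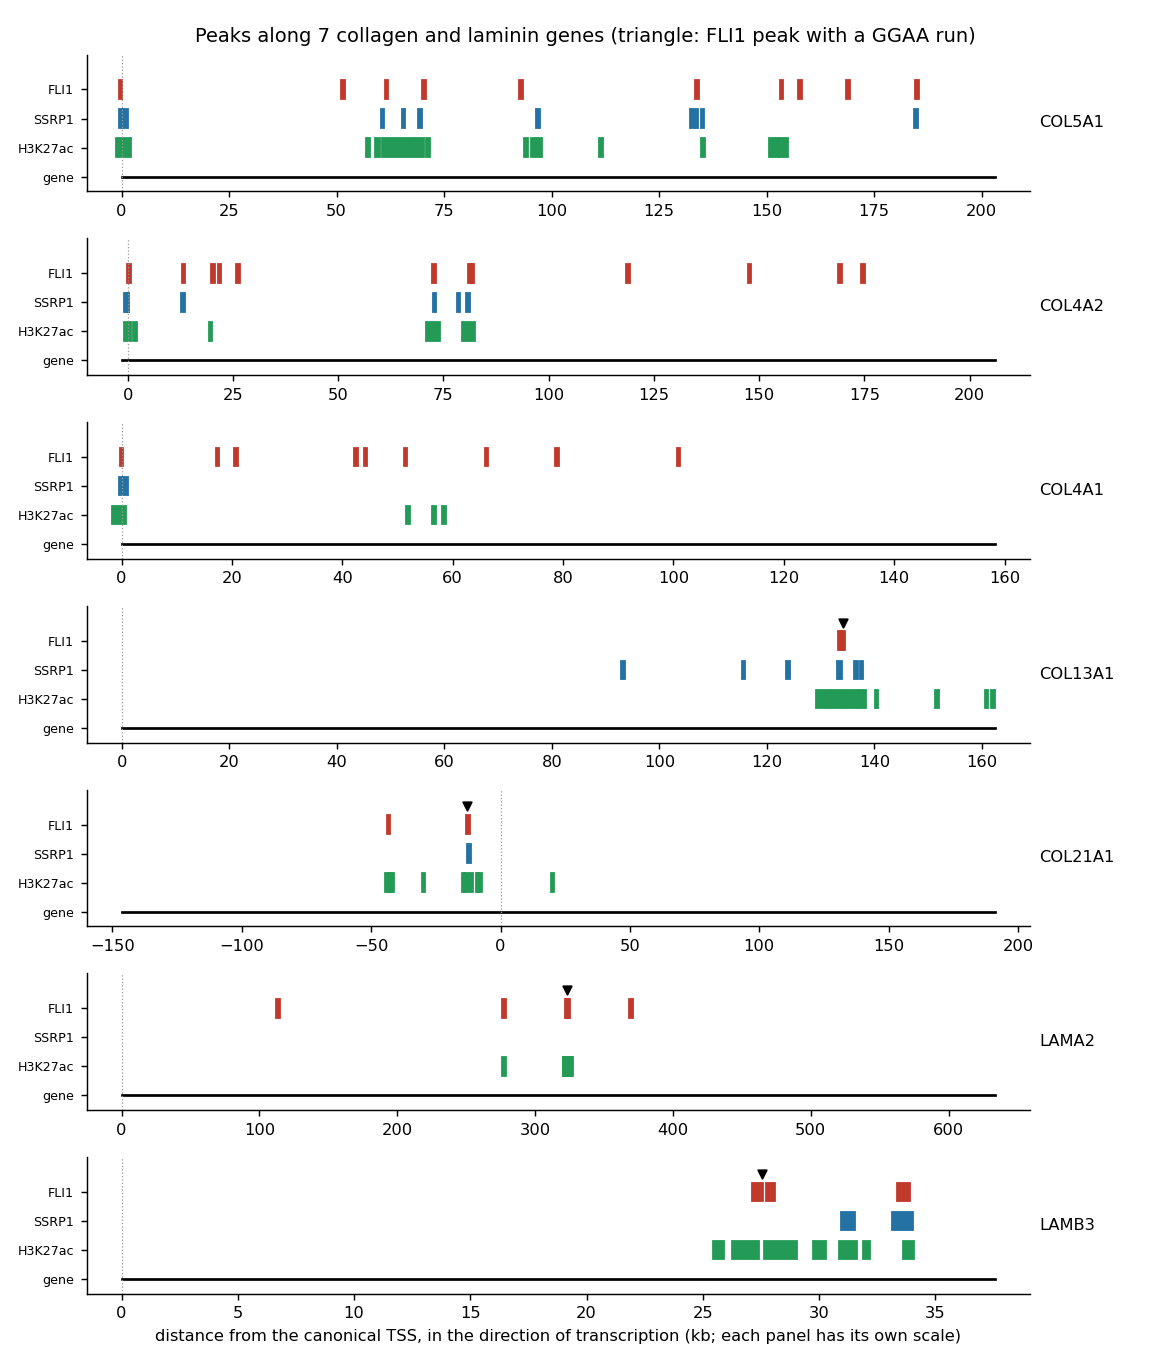
Peaks of FLI1, SSRP1 and H3K27ac along 7 members, by distance in kb from the canonical TSS (dotted line) in the direction of transcription, each panel on its own scale, with the gene as a black line and a triangle over a FLI1 peak that holds a GGAA run. Very narrow peaks are widened to stay visible, so close neighbours can merge. In LAMA2, LAMB3, COL13A1 and COL21A1 the triangle stands in a cluster of H3K27ac.

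Runs of at least 4 GGAA or TTCC were in 4 of the 134 FLI1 peaks of members (2.99%, interval 0.819 to 7.47%), against 2.69% of all FLI1 peaks, a share near the background. Outside coding TSS windows the share in all FLI1 peaks was 3.10%. None of the 21 FLI1 peaks in member windows held one. Among all FLI1 peaks outside coding TSS windows that hold a run, 62.7% met H3K27ac and 21.1% met SSRP1. The 109 body peaks of members without a run met H3K27ac in 14.7% and SSRP1 in 10.1%. In all FLI1 peaks outside coding TSS windows without a run these shares were 17.6% and 10.8%. The median width in members was 254 bp without a run, against 613.5 bp for the 4 with a run. In all FLI1 peaks outside coding TSS windows the medians were 274 bp and 479.5 bp.

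The ETS core was searched as CCGGAAG and CCGGAAA with their reverse complements CTTCCGG and TTTCCGG. It was in 6 of the 134 FLI1 peaks (4.48%, interval 1.66 to 9.49%), against 8.56% of all FLI1 peaks and 4.94% of those outside coding TSS windows. The 6 lay in introns of COL4A1, COL4A2, COL5A1, COL13A1, COL27A1 and LAMA5, and the COL13A1 peak was the one with the repeat. In member windows 0 of 21 peaks held the core, which allows a share of up to 16.1% by the exact interval, against 24.8% of all FLI1 peaks in coding TSS windows. At least 1 GGAA or TTCC was in 19 of these 21 (90.5%), against 93.9% of FLI1 peaks in coding TSS windows. The 2 promoters printed above show both cases, COL1A2 with 2 tetramers and COL4A1 with COL4A2 with 0.

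Genes whose products process collagen were described beside the chains. Of 23 genes of chain modification, folding, trimming and crosslinking, 18 had H3K27ac at a TSS, 16 SSRP1 and 7 FLI1, and the shares of all genes are those given above for each target. All 3 targets were at P4HB (a subunit of prolyl 4-hydroxylase), SERPINH1 (the collagen chaperone HSP47), COLGALT1 and COLGALT2 (which add galactose), ADAMTS3 and ADAMTS14 (which cut the N-propeptide) and PCOLCE (which aids removal of the C-propeptide). P4HA2, P4HA3, ADAMTS2, LOXL2 and LOXL4 had none.

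Partners in the basement membrane and receptors were mixed. Of 10 basement membrane partners, 6 had H3K27ac, 5 SSRP1 and 2 FLI1, with all 3 at AGRN (agrin) and PXDN (which crosslinks collagen IV) and none at NID1, FREM2 and NPNT. Of 15 receptors of collagen and laminin, 5 had H3K27ac, 9 SSRP1 and 7 FLI1. All 3 were at ITGB1 (the integrin beta-1 chain), DDR1 (a collagen-binding kinase) and SDC4 (syndecan-4), and none at ITGA6, ITGA7, ITGA10 and BCAM. In all genes the shares were 58.0% for H3K27ac, 35.9% for SSRP1 and 29.1% for FLI1. At receptors H3K27ac lay below its share, and SSRP1 and FLI1 lay above theirs. The receptor intervals held these shares, at 11.8 to 61.6%, 32.3 to 83.7% and 21.3 to 73.4% in that order. The intervals of the basement membrane partners held them too, at 26.2 to 87.8%, 18.7 to 81.3% and 2.52 to 55.6%.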

How the data were processed

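ChIP-seq peak lists of FLI1, SSRP1 and H3K27ac in SK-N-MC cells were used, 1 library each. Per the series' design text, the authors digested chromatin with micrococcal nuclease, sonicated it, aligned reads to hg19 with Bowtie2 and ran MACS2 (2.2.7.1 in the submitters' processing notes) with input as control at a q-value threshold of 0.05. Duplicate and multiply mapped read filters are not given in the sources used here, and the read depth of the libraries is unknown. The deposited values are peak start and end positions with no score. Intervals repeated once per summit were counted once (38324 FLI1 lines gave 36539 intervals, 23078 SSRP1 lines 19955, and 62198 H3K27ac lines 37271), and chromosomes 1 to 22 and X were kept.

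Genes and TSSs of basic protein-coding transcripts came from GENCODE release 44 lifted to hg19, and sequence from the GRCh37 genome. A target was at a TSS when at least 1 bp of a peak lay within 2.5 kb of it. Sharing needed 20% of either peak, after the series' design text. Overlaps were computed with pysam 0.24.0, pandas 2.3.3, scipy 1.17.1 and numpy 2.4.6 under Python 3.11.15 and were tested on simulated data. No p-value is given. The members and lists were chosen with earlier results of these data known. Of the 56 members, 1 enters the counts and is not reported by name here. With that exception, those with all 3 targets, those with no peak, the 5 with the most inner FLI1 peaks, each FLI1 peak with a GGAA run and the partner genes with all 3 or none were to be named by rule. The clusters of acetylation, the ETS core sites and the members near the window limit were described after their values were seen. Alternatives were other windows, overlap minima, canonical TSSs, wider peaks, run lengths and the exclusion of chromosomes 3, 8, 10 and X.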

Additional observations from a re-analysis of the deposited data

How the results depend on the processing

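Of 170 alternative values, 159 stayed within 1.5 times the reported count. Shares near the background changed sides: FLI1 was at 23.2% of members against 24.6% of all genes with a window of 1 kb and at 16.1% against 20.2% with wide peaks. All 3 targets were at 10.7% against 9.98% with wide peaks, 16.1% against 15.8% with canonical TSSs and 20.0% against 18.2% without chromosomes 3, 8, 10 and X. With only peaks at or above the median width of each list, FLI1 was at the starts of 9 members in all, 2 fibrillar, 3 basement membrane and 4 other collagen genes. SSRP1 was then at 4 basement membrane genes, and SSRP1 without H3K27ac at 5 members, of which 0 were basement membrane genes. A window of 1 kb gave FLI1 at 3 basement membrane genes and SSRP1 without H3K27ac at 1 other collagen gene. Leaving out chromosomes 3, 8, 10 and X gave 1 other collagen gene with SSRP1 without H3K27ac. Extending peaks by 100 bp gave 10 FLI1 peaks with an ETS core. The cause of these changes was not tested. The share of members with H3K27ac stayed below that of all genes under other windows, start sites, peak widths and chromosomes, at 32.1% against 56.9% with 1 kb, 39.3% against 59.6% with 5 kb, 33.9% against 56.3% with canonical TSSs, 30.4% against 50.1% with wide peaks and 42.2% against 58.8% without those chromosomes. The absence of peak heights and read counts limits all of these results, since a weak site and an absent one cannot be told apart. No paired analysis was possible because each target had 1 library, and for the same reason no library could be left out.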
